A study of Mus musculus with 16 samples.

Results

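The genes described here encode the subunits, activators and assembly factors of the mouse proteasome, taken from a series of 16 whole-transcript arrays of oocytes and preimplantation embryos. Members were the array rows annotated to exactly 1 gene symbol that begins with Psm, a letter from a to g and a number, which gave 50 of 30176 genes. Of these, 46 are proteasome genes: 8 Psma, 10 Psmb, 6 Psmc, 14 Psmd, 3 Psme, 1 Psmf and 4 Psmg. The other 4 matched by name alone. They are the pseudogenes Psmb5-ps and Psmb6-ps, and Psmc3ip and Psme3ip1, which take their names from a proteasome protein they bind and are not subunits. Each member had 1 row on the array and all 50 were found by name in RefSeq. Psmb5 and Psme2 were annotated only in rows that carry several symbols and therefore were not members.

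The series set superovulated material, obtained with 10 IU PMSG followed 48 h later by 10 IU hCG, beside natural-cycle material obtained without gonadotropins. Each background was sampled at 8 stages with 1 array per stage, beginning with the MII oocyte and the 1-cell embryo, going on through early and late 2-cell to 4-cell and 8-cell, and ending with the morula and the blastocyst. All oocytes came from B6C3F1 females and all embryos from CD1 sires, zygotes of both backgrounds were cultured in KSOM(aa), and each array was hybridised with the equivalent of 20 oocytes or embryos drawn from pooled lysates (4 collection runs with n = 3096 for superovulated material, 9 runs with n = 989 for natural-cycle material). Superovulated MII oocytes came from unmated females, whereas those of natural cycles were collected after mating to a vasectomized male, so that mating and stimulation cannot be told apart at MII.

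The proteasome degrades proteins that carry ubiquitin chains. Its barrel-shaped 20S core is built from outer rings of alpha subunits (Psma), which gate the entrance, and inner rings of beta subunits (Psmb), of which Psmb5, Psmb6 and Psmb7 cut the substrate. A 19S cap is docked on the core. Its base holds a ring of ATPases (Psmc) that unfold and thread the substrate, and its lid (most Psmd proteins) removes the ubiquitin. Alternative caps (Psme), an inhibitor (Psmf1), dedicated assembly chaperones (Psmg and some Psmd proteins) and the cytokine-inducible immunoproteasome subunits Psmb8, Psmb9 and Psmb10 complete the family. After fertilization the mouse embryo clears maternal RNA and protein and starts its own transcription, with the major wave at the 2-cell stage.

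All values are log2 signals as deposited, with medians over all rows of 4.39 to 4.69 per array, the highest in superovulated morulae. A signal counts only in relation to the rest of its array, so that fewer transcripts per cell and fewer cells contributing them cannot be told apart, and a change in total RNA per embryo would not be seen. The silent level is the 95th percentile, on each array, of 1804 rows of olfactory, vomeronasal and taste receptor and keratin-associated genes, and it ran from 4.82 to 5.33. The means of the marker lists went with the stage labels, although single members departed from them. The mean signal of 8 oocyte genes was 15.49 in superovulated and 15.45 in natural-cycle MII oocytes and 6.38 and 5.82 in the blastocysts, 10 genes of the 2-cell activation wave had their highest mean at early 2-cell (13.45 and 13.36), and 7 trophectoderm genes had theirs in blastocysts (10.40 and 11.44). Of the trophectoderm genes, Tfap2c was highest at 8-cell in superovulated and in morulae in natural-cycle material, and Elf5 passed the silent level on 1 array. The mean of 5 inner cell mass genes was also highest in blastocysts (9.73 and 9.70), although Gata6 and Fgf4 peaked earlier. Sox17 never passed the silent level. Leukocyte and blood genes (8 measured) never passed the silent level. Of 13 cumulus and granulosa genes 5 never did, and their mean in MII oocytes was 6.89 in superovulated and 5.86 in natural-cycle material. The part of cumulus RNA in the values was not tested.

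No proteasome gene was called as changed between MII and 1-cell. At early 2-cell 4 of 7 alpha-ring genes and 4 of 6 ATPase genes fell (10.1% of all rows), by late 2-cell 7 of 8 lid genes rose (10.5% of all rows), and from there to the blastocyst 25 of 30 core subunits climbed (19.1% of all rows). The plot of all 46 genes across the 16 arrays shows this course. Rows with a mean above the median level were called more often than all rows at both 2-cell steps, and no such share is given for the climb. The fall of the alpha-ring gene Psma1 was lost with all rows tested, without the stimulation term and in plain analysis of variance. The rises of the lid genes Psmd6 and Psmd8 were lost after cyclic loess scaling. Among the 44 genes that passed the silent level on at least 1 array, 21 had their lowest mean at early 2-cell, 19 of them on both backgrounds. The highest mean lay in blastocysts for 20 genes and in morulae for 12. No such shares are given for all rows, so these counts describe the members alone. Psmb8 and Psmb11, immune and thymic subunits, stayed at or below the silent level on 16 of 16 arrays, the testis-enriched Psma8 on 15 and the immunoproteasome subunit Psmb9 on 14.

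**Figure D1:**
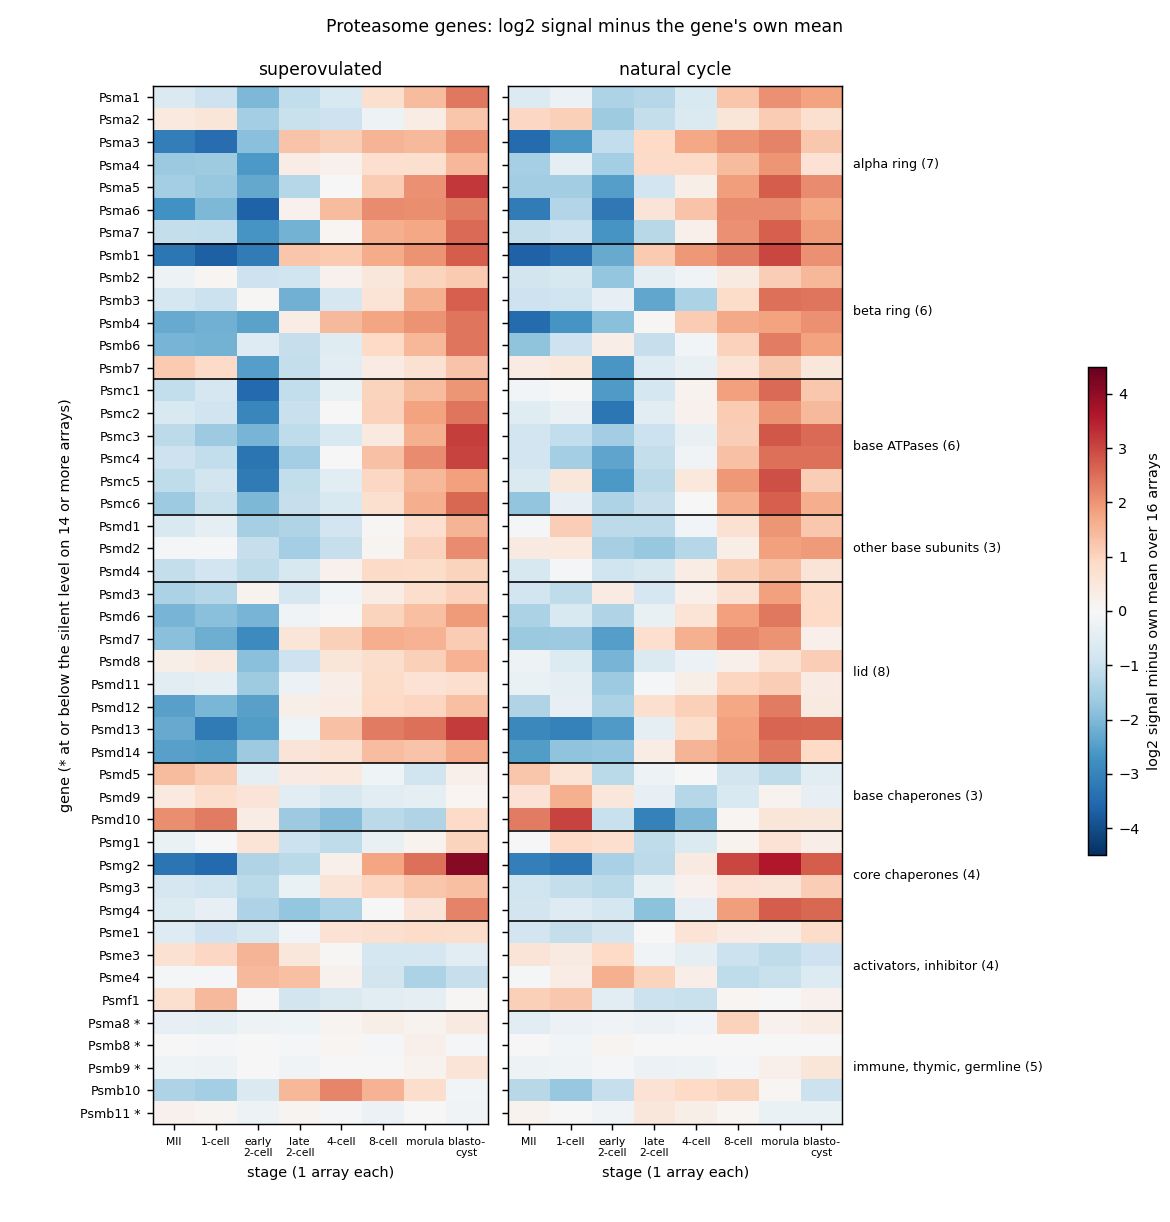
Log2 signal of 46 proteasome genes (rows, grouped by role) on 16 arrays (columns, superovulated on the left and natural-cycle on the right, stages from MII to blastocyst), each gene minus its own mean over the arrays; blue is below and red above that mean, and an asterisk marks the 4 genes at or below the silent level on at least 14 arrays. Early 2-cell columns are blue for most alpha-ring, ATPase and base rows, and morula and blastocyst columns are red for nearly all core subunits.

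Each step between stages was a contrast of 4 arrays in a fit across 30638 rows with stage and stimulation as terms, called at an adjusted p below 0.05 (limma, Benjamini-Hochberg over all rows), and errors are standard errors (SE) of that fit. With 1 array per stage and background, the error comes from how far the backgrounds depart from a common stage course. No proteasome gene was called between MII and 1-cell, against 0.235% of all rows (0.0196% up and 0.215% down), and 2 of 46 had an unadjusted p below 0.05 (6.34% of all rows). The median change was 0.03. Psma6, an alpha-ring subunit, had the lowest p of this step. It measured 12.30 in superovulated and 12.98 in natural-cycle 1-cell embryos, against 11.58 and 11.17 in MII oocytes (1.26 ± 0.31 SE, adjusted p = 0.1941).

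From 1-cell to early 2-cell, 16 of 46 proteasome genes fell, 5 rose and 25 were not called, where 21.5% of all rows were called (10.1% down and 11.4% up). Rows with a mean above the median level were called more often in either direction (41.5%), close to the 45.7% of the 46 proteasome genes. The median over the 46 genes was -0.64, against 0.00 over all rows. All 21 called genes moved the same way on both backgrounds. A call favours such agreement, because the error comes from how far the backgrounds depart, so it is no separate check. After cyclic loess scaling 23 were called down and 3 up, and 18 down and 5 up with arrays centred on rows above the silent level. By letter, 4 of 6 Psmc genes fell and none rose (median -2.00), 4 of 8 Psma fell and 1 rose (-1.06), and 6 of 14 Psmd fell and 1 rose (-0.74). In the Psmb group 1 fell and 1 rose out of 10 (0.22), in the Psme group 1 of 3 rose (0.55), Psmf1 fell, and 1 of 4 Psmg rose (0.01). Whether the groups differ from each other was not tested. The plot of both 2-cell steps gives every gene with its error.

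**Figure D2:**
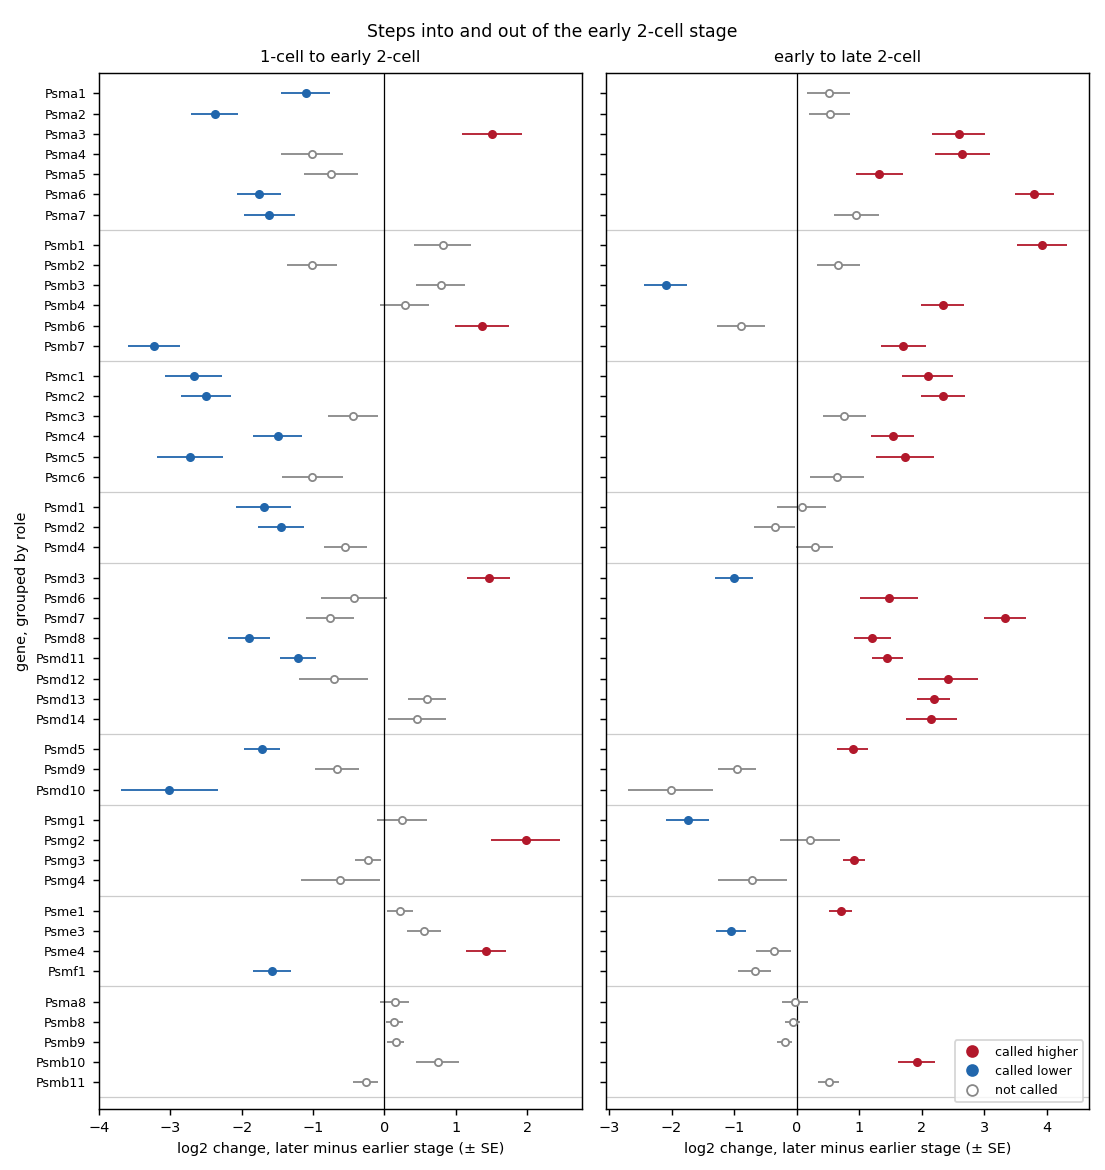
Log2 change with its SE for each of 46 proteasome genes (rows, by role) from 1-cell to early 2-cell (left) and from early to late 2-cell (right), coloured by call at an adjusted p below 0.05. On the left 16 genes are called down, among them 4 of 7 alpha-ring and 4 of 6 ATPase genes, and on the right 7 of 8 lid genes are called up. Of these lid genes, Psmd6 and Psmd8 lose the call after cyclic loess scaling. Of the alpha-ring genes on the left, Psma1 loses the call with all rows tested, without the stimulation term and in plain analysis of variance.

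Psmb7, which carries the trypsin-like activity of the core, showed the largest fall of this step. Its signals from MII to blastocyst were 14.57, 14.26, 10.89, 12.30, 12.87, 13.75, 14.07 and 14.67 in superovulated material, against 13.74, 13.87, 10.77, 12.79, 13.06, 14.01, 14.60 and 13.90 in natural-cycle material. Both early 2-cell arrays lay below the other 14 arrays, and the change of -3.23 ± 0.36 (adjusted p = 5.963e-05) is a 9.37-fold drop. Psmb6, the caspase-like subunit of the same ring, went the other way. It read 10.48, 10.45, 11.96, 11.52, 12.03, 13.45, 14.04 and 14.97 in superovulated material, against 10.76, 11.64, 12.87, 11.53, 12.43, 13.58, 14.87 and 14.36 in natural-cycle material. Early 2-cell was above 1-cell on both backgrounds without overlap (1.37 ± 0.38, adjusted p = 0.02366). This call was lost after cyclic loess scaling (0.76) and in plain analysis of variance. As deposited, the 2 catalytic subunits with a row of their own moved in opposite directions. Psmb5 shares its row with Mir686, and that row is given in the closing section.

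In the ATPase ring of the base 4 of 6 genes fell. Psmc5 measured 11.47, 11.79, 9.44, 11.52, 12.10, 13.56, 14.11 and 14.48 from MII to blastocyst in superovulated material, against 11.97, 13.12, 10.02, 11.41, 13.07, 14.56, 15.50 and 13.71 in natural-cycle material. Psmc1 measured 10.85, 11.19, 8.43, 10.85, 11.66, 12.93, 13.37 and 13.93 in superovulated material, against 11.81, 11.98, 9.38, 11.16, 12.11, 13.80, 14.51 and 13.16 in natural-cycle material. For both genes early 2-cell was the lowest stage on each background, and late 2-cell lay above early 2-cell and below 1-cell. Psmc2 measured 10.53, 10.32, 8.26, 10.21, 11.23, 12.25, 13.04 and 13.63 in superovulated material, against 10.67, 10.91, 7.97, 10.70, 11.40, 12.37, 13.22 and 12.67 in natural-cycle material. Early 2-cell was again the lowest stage on both backgrounds. The changes were -2.73 ± 0.46 for Psmc5 (adjusted p = 0.001092), -2.67 ± 0.40 for Psmc1 (adjusted p = 0.000488) and -2.50 ± 0.35 for Psmc2 (adjusted p = 0.0002928), and Psmc4 fell by 1.50 on the log2 scale. Psmc3 and Psmc6 were not called. Psmc3 read 7.70 in superovulated and 8.23 in natural-cycle early 2-cell embryos, against 8.15 and 8.67 at 1-cell, and Psmc6 read 9.56 and 10.19, against 10.56 and 11.21.

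Psmd10 (gankyrin), a chaperone that holds ATPases during assembly of the base, fell next to Psmb7 in size and did not come back at once. Its signals were 11.82, 12.07, 10.09, 8.10, 7.79, 8.53, 8.40 and 10.60 in superovulated material, against 12.09, 12.79, 8.74, 6.69, 7.74, 9.82, 10.28 and 10.26 in natural-cycle material (-3.01 ± 0.68, adjusted p = 0.007243). Every array from early 2-cell on was below all 4 arrays of MII and 1-cell. The base chaperone Psmd5 fell by 1.72 ± 0.25 on the log2 scale (adjusted p = 0.0003793) and Psmd9, the third such chaperone, was not called. The remaining falls were those of the alpha-ring subunits Psma2 (-2.38 ± 0.33, adjusted p = 0.0002912), Psma6 (-1.75), Psma7 (-1.62) and Psma1 (-1.10), the lid subunits Psmd8 (-1.90) and Psmd11 (-1.21), the large base scaffolds Psmd1 (-1.69) and Psmd2 (-1.45), and the inhibitor Psmf1 (-1.58). The Psma1 call was lost with all rows tested, without the stimulation term and in plain analysis of variance.

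The genes that rose came from different parts of the family. Psmg2, whose protein pairs with that of Psmg1 to start the alpha ring, was near the silent level in oocytes and measured 5.24, 5.02, 7.17, 7.32, 8.78, 10.32, 11.00 and 12.63 in superovulated material, against 5.47, 5.26, 7.08, 7.35, 8.95, 11.53, 12.12 and 11.27 in natural-cycle material (1.98 ± 0.48, adjusted p = 0.0112). The alpha-ring subunit Psma3 measured 9.26, 8.94, 10.49, 13.66, 13.49, 13.91, 13.85 and 14.44 in superovulated material, against 8.92, 9.80, 11.26, 13.27, 14.12, 14.42, 14.62 and 13.61 in natural-cycle material (1.50 ± 0.42, adjusted p = 0.02405). Psma3 was the only gene called up at both 2-cell steps, and its first call was lost after cyclic loess scaling (0.91). The lid subunit Psmd3 measured 9.03, 9.18, 10.59, 9.70, 10.33, 10.79, 11.25 and 11.48 in superovulated material, against 9.60, 9.31, 10.82, 9.70, 10.69, 11.14, 12.30 and 11.32 in natural-cycle material. It rose by 1.46 ± 0.30 (adjusted p = 0.004201) and then fell by 1.00 on the log2 scale at late 2-cell (adjusted p = 0.03694), where most lid genes rose. The activator Psme4 is described with the other caps.

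Set directly against MII, early 2-cell gave the same picture, with 14 genes down and 5 up, where 24.4% of all rows were called (11.4% down and 13.0% up). These contrasts share the early 2-cell arrays with the step from 1-cell. Falls were led by Psmb7 (-3.32 ± 0.36, adjusted p = 4.264e-05), Psmd10 (-2.54), Psmc2 (-2.49), Psmc1 (-2.42), Psma2 (-2.25), Psmd5 (-2.17), Psmd8 (-2.02), Psmc5 (-1.99), Psmc4 (-1.93) and Psma7 (-1.59). The rises were Psmb6 (1.80), Psma3 (1.78), Psmg2 (1.77), Psme4 (1.63) and Psmd3 (1.39).

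From early to late 2-cell the direction turned. Of 46 genes 22 rose, 4 fell and 20 were not called, where 19.0% of all rows were called (10.5% up and 8.56% down) and 39.6% of rows with a mean above the median level. The median was 0.74, against -0.02 over all rows. The 8 lid genes among the members were all called, 7 up and 1 down (median 1.82), while the lid subunit Sem1, which the name rule does not take in, was not (1.02 ± 0.44, adjusted p = 0.1458). The rises of Psmd6 and Psmd8 were lost after cyclic loess scaling and without the stimulation term. The Psmd6 rise was also lost with all rows tested and in plain analysis of variance. The Psmd3 fall was lost with all rows tested and without the stimulation term. Of the ATPases 4 of 6 rose (1.64), of the Psma genes 4 of 8 (1.14), and of the standard beta ring 3 of 6 with 1 down (1.19). The base subunits other than the ATPases, Psmd1, Psmd2 and Psmd4, were not called (median 0.08), nor was Psmf1. All 26 called genes moved the same way on both backgrounds, which a call in this fit favours. After cyclic loess scaling the split was 18 up and 7 down, and 20 up and 8 down with arrays centred on rows above the silent level.

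Psmb1, a structural beta subunit, rose most. Its signals were 9.37, 8.97, 9.48, 13.88, 13.82, 14.30, 14.67 and 15.35 in superovulated material, against 8.99, 9.23, 10.35, 13.82, 14.58, 14.95, 15.65 and 14.67 in natural-cycle material (3.93 ± 0.40, adjusted p = 0.0001278). The 6 arrays up to early 2-cell lay between 8.97 and 10.35 and the 10 arrays from late 2-cell on between 13.82 and 15.65, a step between levels with no overlap. Psma6 measured 11.58, 12.30, 10.68, 14.49, 15.75, 16.42, 16.40 and 16.66 in superovulated material, against 11.17, 12.98, 11.09, 14.89, 15.60, 16.45, 16.45 and 16.05 in natural-cycle material (3.81 ± 0.31, adjusted p = 4.265e-05). It had fallen at early 2-cell and passed its oocyte level by late 2-cell on both backgrounds. Psma4, another alpha-ring subunit, measured 9.15, 9.21, 8.25, 11.17, 11.03, 11.58, 11.54 and 12.32 in superovulated material, against 9.34, 10.38, 9.29, 11.69, 11.70, 12.26, 12.83 and 11.47 in natural-cycle material (2.65 ± 0.44, adjusted p = 0.001469).

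The lid subunit Psmd7, which pairs with the deubiquitinase Psmd14, measured 11.34, 11.02, 10.34, 13.75, 14.29, 14.87, 14.77 and 14.35 in superovulated material, against 11.57, 11.59, 10.73, 13.99, 14.83, 15.39, 15.24 and 13.45 in natural-cycle material (3.33 ± 0.34, adjusted p = 0.0001247). Psmd14 itself rose by 2.15 ± 0.41 (adjusted p = 0.003457), and its signal was 9.74 in superovulated and 9.48 in natural-cycle late 2-cell embryos, against 7.51 and 7.41 at early 2-cell. Among the late 2-cell arrays no value overlapped with early 2-cell for Psmd7 or Psmd14. Further rises among the 10 largest were those of Psma3 (2.59), Psmd12 (2.42), Psmc2 (2.35), Psmb4 (2.34) and Psmd13 (2.20), and the other 12 ran from 0.70 for Psme1 to 2.10 for Psmc1.

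The 4 falls at this step were Psmb3, Psmg1, Psme3 and Psmd3. Psmb3, a structural beta subunit, measured 10.29, 10.09, 11.10, 8.90, 10.31, 11.67, 12.67 and 13.76 in superovulated material, against 10.14, 10.15, 10.71, 8.72, 9.63, 11.91, 13.54 and 13.47 in natural-cycle material (-2.10 ± 0.34, adjusted p = 0.001367). Late 2-cell was its lowest stage on both backgrounds. Psmg1 measured 10.89, 11.17, 11.80, 10.21, 10.02, 10.84, 11.35 and 12.19 in superovulated material, against 11.16, 12.08, 11.95, 10.05, 10.52, 11.32, 11.81 and 11.49 in natural-cycle material (-1.74 ± 0.35, adjusted p = 0.004503). Psmg1 and Psmg2, the partners of 1 chaperone, thus took different courses at the 2-cell stage.

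Read over both steps, 9 genes were called down and then up: Psma6, Psmb7, Psmc1, Psmc2, Psmc4, Psmc5, Psmd5, Psmd8 and Psmd11. Another 7 were called down and not called back (Psma1, Psma2, Psma7, Psmd1, Psmd2, Psmd10 and Psmf1), and 12 rose at the second step without a called fall. None was called down at both. The steps share the early 2-cell arrays, so a low value there favours a fall followed by a rise in any row. No share of all rows with these patterns is given, so the counts describe the members alone. After cyclic loess scaling the second-step rises of Psmc5, Psmd5 and Psmd8 were lost. That of Psmd5 was also lost with arrays centred on rows above the silent level.

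Promoter windows from RefSeq (GRCm38.p6, 250 bases before to 50 after a start) were found for 38 of the 46 genes, 40 windows in all. Psma8, Psmb1, Psmb2, Psmb7, Psmc3, Psmd3, Psmd7 and Psmg2 had no entry. The ETS core CCGGAAG, looked for on both strands, was present in 37.5% of these windows, against 8.86% of all 32851 windows and 11.6% of the 21263 windows of protein-coding genes (22.5% against 4.77% on the gene's own strand alone). The CCAAT box (CCAAT) was present in 35.0% against 37.4% of all windows (30.0% against 21.1% on the gene's own strand alone), the antioxidant response element core (TGACNNNGC) in 12.5% against 12.4%, the nuclear respiratory factor 1 motif in 5.0% against 1.87% and the TATA box (TATAAA) in 10.0% against 13.6%. No overlap between motifs was removed and no test was made. The ETS core did not follow the first 2-cell step: it was present for 5 of 15 genes called down, 1 of 3 called up and 8 of 20 not called. At the second step it was present for 8 of 19 called up, 2 of 3 called down and 4 of 16 not called. The 120 bases before the start are shown for 3 genes called down and then up, for Psme4, which rose at the first step, and for Psmb3, which fell at the second and whose window holds no match. Other genes with the same calls differ from those shown. The windows of Psmc4, Psmc5, Psmd5 and Psmd8, called down and then up, hold no match. Those of Psme3 and Psmg1, which fell at the second step, hold the ETS core. Capitals mark the ETS core on either strand (CTTCCGG where it lies on the other strand). The windows are Psmc1 at chr12:100110082-100110201, the second of 2 windows of Psmc2 at chr5:21786627-21786746, Psmd11 at chr11:80428495-80428614, Psme4 at chr11:30771655-30771774 and Psmb3 at chr11:97703314-97703433, all on the plus strand.
Psmc1: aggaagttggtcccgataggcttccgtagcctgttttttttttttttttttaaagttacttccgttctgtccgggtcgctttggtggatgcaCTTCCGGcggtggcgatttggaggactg
Psmc2: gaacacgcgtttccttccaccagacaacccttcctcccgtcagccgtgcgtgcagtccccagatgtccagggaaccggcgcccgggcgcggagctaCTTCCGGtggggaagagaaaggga
Psmd11: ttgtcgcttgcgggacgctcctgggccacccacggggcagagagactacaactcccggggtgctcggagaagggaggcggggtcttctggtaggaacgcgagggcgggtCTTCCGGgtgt
Psme4: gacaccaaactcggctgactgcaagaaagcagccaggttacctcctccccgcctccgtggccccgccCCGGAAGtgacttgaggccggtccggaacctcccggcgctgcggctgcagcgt
Psmb3: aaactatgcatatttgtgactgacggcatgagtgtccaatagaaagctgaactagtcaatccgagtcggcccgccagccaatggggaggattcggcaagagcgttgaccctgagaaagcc
The match begins 28, 24, 11 and 53 bases before the start in Psmc1, Psmc2, Psmd11 and Psme4. A match is a description of letters and not a measured binding site.

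After the 2-cell stage the family climbed. From late 2-cell to blastocyst 34 of 46 genes rose, 4 fell and 8 were not called, where 36.9% of all rows were called (19.1% up and 17.8% down), and the median was 1.70, against 0.00 over all rows. No share among rows above the median level is given for this climb or its single steps. Of the 30 core subunits (alpha ring, standard beta ring, base and lid) 25 rose and none fell (median 2.08). Of the other 16 genes 9 rose and 4 fell (0.68). All 6 Psmc and all 4 Psmg genes rose, with medians of 2.92 and 2.95, as did 6 of 8 Psma (1.84), 7 of 10 Psmb (1.45) and 9 of 14 Psmd (1.58). All 38 called genes moved the same way on both backgrounds, which a call in this fit favours. Psma8 and Psmb9 among the rises and Psmb11 among the falls were at or below the silent level on at least 14 arrays. The plot of this change gives each gene on both backgrounds.

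**Figure D3:**
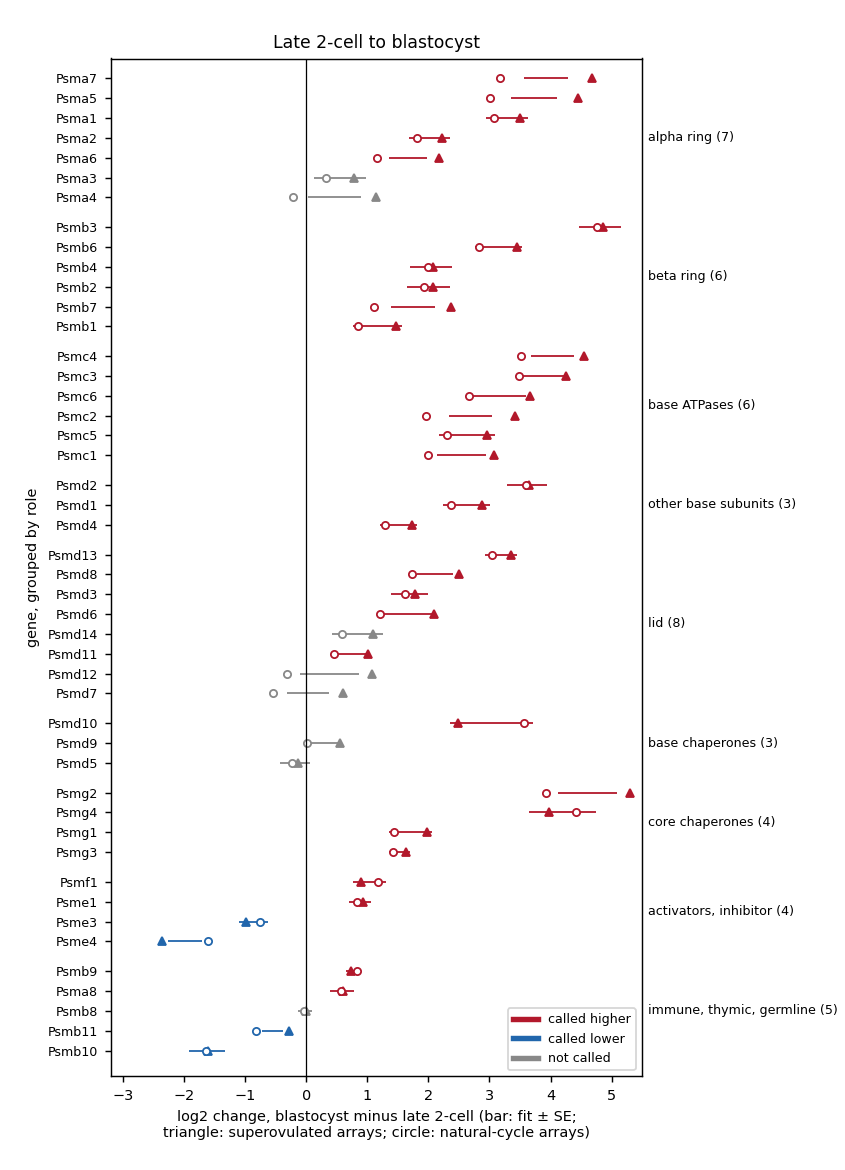
Log2 change from late 2-cell to blastocyst for 46 proteasome genes; the horizontal bar spans the fitted change plus and minus its SE, the triangle the superovulated and the circle the natural-cycle pair of arrays. The 3 largest rises belong to Psmb3, Psmg2 and Psmg4 and the largest fall to Psme4, and all 6 ATPase genes lie right of 0 on both backgrounds.

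Psmb3, lowest at late 2-cell, had the largest rise, 4.81 ± 0.34 (adjusted p = 8.918e-07), a 28.0-fold change. Next came the assembly chaperones Psmg2 (4.61 ± 0.48, adjusted p = 1.523e-05) and Psmg4 (4.19 ± 0.55, adjusted p = 9.008e-05), the ATPases Psmc4 (4.04) and Psmc3 (3.87), the alpha-ring subunits Psma7 (3.93), Psma5 (3.73) and Psma1 (3.29), the base scaffold Psmd2 (3.62) and the lid subunit Psmd13 (3.19). Psmc4 measured 9.32, 9.13, 6.95, 8.72, 10.26, 11.55, 12.36 and 13.27 in superovulated material, against 9.37, 8.69, 7.87, 9.18, 10.09, 11.55, 12.72 and 12.70 in natural-cycle material, higher at each stage from early 2-cell to morula on both backgrounds. Of the 8 genes not called, 6 had been called up at late 2-cell (Psma3, Psma4, Psmd5, Psmd7, Psmd12 and Psmd14), and Psmd7 changed by 0.03 ± 0.34 (adjusted p = 0.9617).

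Single steps of this climb were called less often. From late 2-cell to 4-cell the alpha-ring subunit Psma7 (1.85 ± 0.36, adjusted p = 0.02877) and the lid subunit Psmd13 (1.37 ± 0.27, adjusted p = 0.02892) rose, where 2.07% of all rows were called (1.01% up and 1.05% down), and the median was 0.61. From 4-cell to 8-cell 10 genes rose and 1 fell, where 6.96% of all rows were called (2.81% up and 4.15% down), with a median of 0.67. The rises were Psmg2 (2.07 ± 0.48, adjusted p = 0.02658), Psmb3 (1.82), Psma7 (1.69), Psma1 (1.66), Psmc1 (1.48), Psma5 (1.39), Psmd2 (1.38), Psmc4 (1.37), Psmc3 (1.29) and Psmd13 (1.03), and the fall was Psme4 (-1.23). Without the natural-cycle 4-cell or the natural-cycle 8-cell array no proteasome gene was called, and without the superovulated 4-cell array 1. From 8-cell to morula no gene was called (1.82% of all rows, 0.682% up and 1.14% down, median 0.41), although 13 of 46 had an unadjusted p below 0.05 (13.3% of all rows) and the median was positive on both backgrounds. With arrays centred on rows above the silent level Psmc3, Psmb3 and Psmd2 were called up. From morula to blastocyst Psmd5 rose (0.91 ± 0.25, adjusted p = 0.03281) and Psmb10 fell (-1.01 ± 0.30, adjusted p = 0.04834), where 12.1% of all rows were called (6.54% up and 5.53% down). Both calls were lost with array weights, without the stimulation term and with all rows tested.

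**Figure D4:**
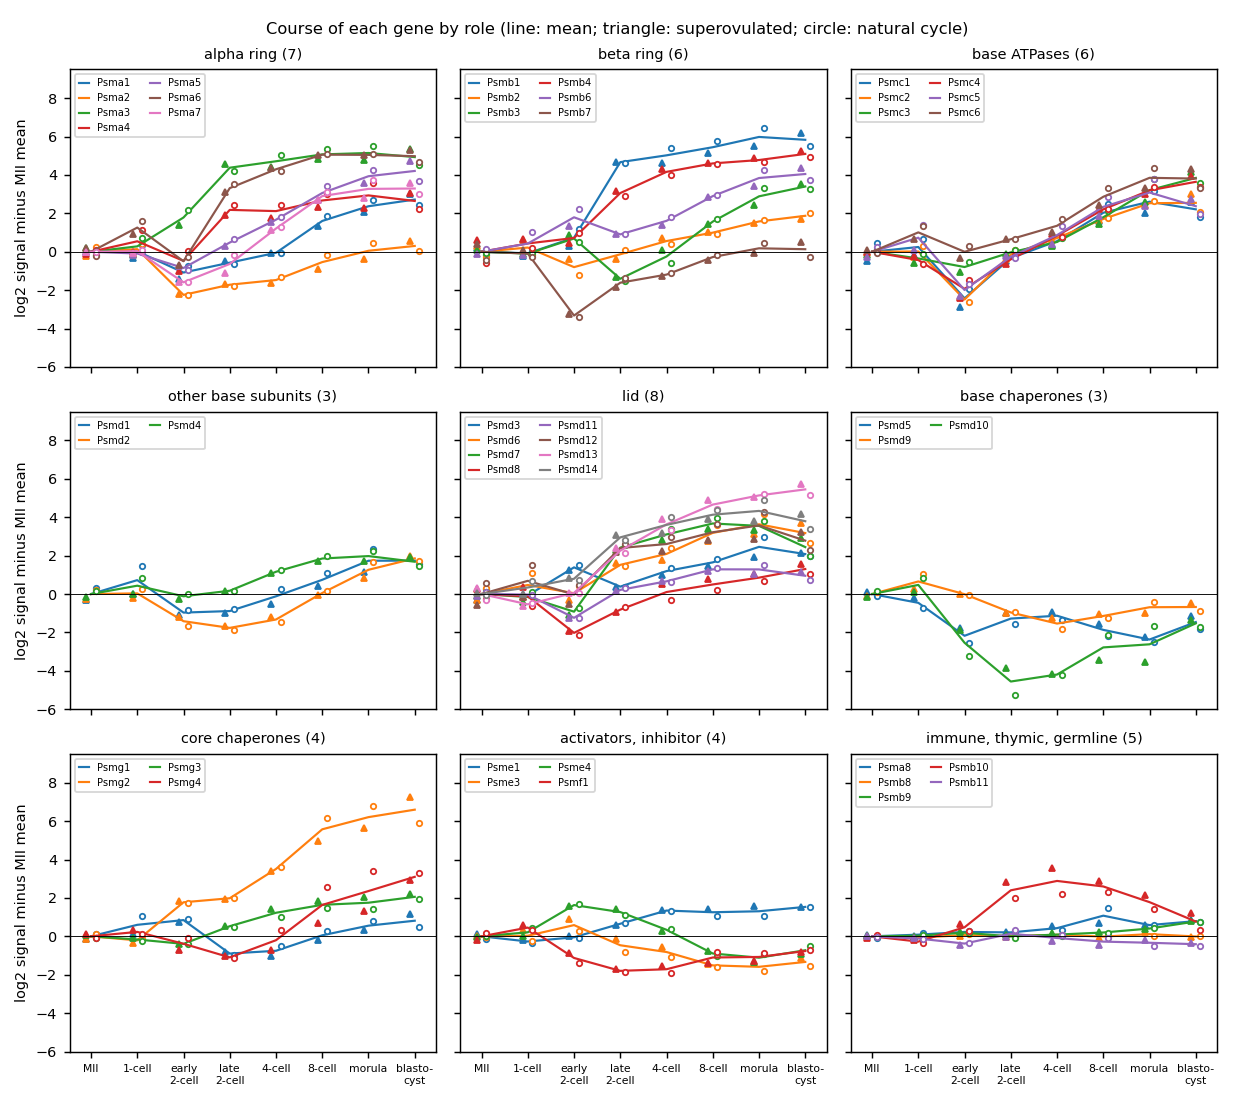
Log2 signal of each proteasome gene minus its mean in MII oocytes, in 9 panels by role, from MII to blastocyst; triangles are superovulated and circles natural-cycle arrays and the line joins their means. The ATPase panel dips at early 2-cell and climbs to morula or blastocyst for all 6 genes, whereas Psme3 and Psme4 peak at early 2-cell and end below it.

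The alternative caps and the inducible subunits took their own courses. Psme4 (PA200), an activator known for its part in histone degradation in spermatogenesis, measured 11.09, 11.09, 12.66, 12.53, 11.40, 10.36, 9.78 and 10.16 in superovulated material, against 11.12, 11.53, 12.80, 12.20, 11.48, 10.06, 10.20 and 10.59 in natural-cycle material. It peaked at early 2-cell on both backgrounds (1.42 ± 0.28 from 1-cell, adjusted p = 0.003071) and fell by 1.99 ± 0.28 on the log2 scale from late 2-cell to blastocyst (adjusted p = 0.0001426). Psme3 (PA28 gamma), the nuclear activator, measured 13.96, 14.22, 14.81, 13.78, 13.34, 12.48, 12.52 and 12.80 in superovulated material, against 13.87, 13.67, 14.19, 13.12, 12.86, 12.32, 12.13 and 12.36 in natural-cycle material. It too was highest at early 2-cell, then fell at late 2-cell (-1.05 ± 0.23, adjusted p = 0.008394) and from there to blastocyst (-0.87 ± 0.23, adjusted p = 0.01164). Psme1 (PA28 alpha), which partners with Psme2 and is inducible by interferon, measured 5.20, 4.85, 5.07, 5.66, 6.42, 6.49, 6.62 and 6.58 in superovulated material, against 4.91, 4.72, 4.95, 5.76, 6.38, 6.14, 6.10 and 6.59 in natural-cycle material. Its 10 arrays from late 2-cell on were above its 6 earlier arrays, of which 5 were at or below the silent level (0.70 ± 0.18 from early to late 2-cell, adjusted p = 0.01702).

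Psmb10, the inducible counterpart of Psmb7, was at or below the silent level on 1 array, unlike the other immunoproteasome subunits. It measured 5.31, 5.19, 6.05, 8.19, 8.92, 8.26, 7.52 and 6.58 in superovulated material, against 5.46, 5.03, 5.67, 7.37, 7.62, 7.70, 6.81 and 5.73 in natural-cycle material. It rose from early to late 2-cell (1.92 ± 0.30, adjusted p = 0.001065), was highest at 4-cell in superovulated and at 8-cell in natural-cycle material, and fell from late 2-cell to blastocyst (-1.62 ± 0.30, adjusted p = 0.0009896). Psmb8 lay between 3.99 and 4.34 on all 16 arrays, with 4.11, 4.08, 4.10, 4.09, 4.22, 4.04, 4.34 and 4.09 in superovulated material, against 4.11, 3.99, 4.25, 4.14, 4.16, 4.15, 4.10 and 4.11 in natural-cycle material. Psmb9 passed the silent level only in blastocysts, with 4.41, 4.38, 4.62, 4.45, 4.58, 4.62, 4.77 and 5.18 in superovulated material, against 4.38, 4.46, 4.54, 4.32, 4.39, 4.56, 4.83 and 5.15 in natural-cycle material. The 8 leukocyte and blood markers were at or below the silent level on every array. Psmf1, the inhibitor, measured 6.42 in superovulated and 6.54 in natural-cycle blastocysts, against 5.52 and 5.37 at late 2-cell (1.03 ± 0.27, adjusted p = 0.009023). It stayed below its MII values of 7.07 and 7.42.

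Among the 4 core assembly chaperones, Psmg3 was at or below the silent level on 7 arrays and Psmg4 reached 11.29 in superovulated and 11.64 in natural-cycle blastocysts, against 7.31 and 7.22 at late 2-cell. Psmg3 rose at late 2-cell (0.92 ± 0.18, adjusted p = 0.003581) and by 1.53 on to the blastocyst (adjusted p = 3.305e-05). Of the name matches that are not subunits, the pseudogene Psmb5-ps rose by 3.90 ± 0.66 from early to late 2-cell (adjusted p = 0.001714). It measured 6.89, 7.19, 6.16, 10.07, 10.86, 11.52, 10.49 and 12.06 in superovulated material, against 5.50, 5.20, 6.34, 10.23, 10.61, 11.57, 12.26 and 11.60 in natural-cycle material. A row for a pseudogene can take up signal of its parent gene, and its values are uncertain for that reason. Psmc3ip (Hop2), a recombination factor, rose at late 2-cell (1.79) and fell to the blastocyst (-2.15), and Psme3ip1 fell at early 2-cell (-0.98) and from late 2-cell to blastocyst (-1.32).

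Genes around the proteasome were taken from a list of 26 measured genes for receptors, deubiquitinases, assembly, transcription factors and the segregase complex. From 1-cell to early 2-cell 3 rose and 3 fell, a share near that over all rows (21.5%). The proteasome-bound deubiquitinase Usp14 (-1.61 ± 0.34, adjusted p = 0.00527), the adaptor Ecpas (-1.33) and the segregase cofactor Nploc4 (-1.67) fell, and Zfand5 (1.11), Ube3c (1.00) and Mafk (0.75) rose. From early to late 2-cell 7 rose and 2 fell, against 10.5% and 8.56% of all rows. The core maturation factor Pomp rose by 1.56 ± 0.37 (adjusted p = 0.01237), the deubiquitinase Uchl5 by 1.62, Usp14 by 1.31, and the segregase Vcp and its cofactor Ufd1 by 1.30 and 1.43, while Ecpas (-1.29) and Ngly1 (-1.03) fell. From late 2-cell to blastocyst 9 rose and 6 fell, against 19.1% and 17.8% of all rows, with Vcp (2.63 ± 0.29, adjusted p = 2.041e-05), Usp14 (2.40), Pomp (1.73) and the lid subunit Sem1 (1.46) among the rises. The falls were Zfand2a (-2.56), Zfand5 (-1.91), Akirin2 (-1.72), which is known to bring proteasomes into the nucleus, Ngly1 (-1.15), Mafg (-1.03) and Mafk (-0.95). Nfe2l1, known in mammalian cells as the activator of proteasome genes, was not called at any step.

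Superovulated and natural-cycle material were compared over 8 pairs of arrays matched by stage. No proteasome gene was called, where 0.339% of all rows were (0.206% up and 0.134% down), and 12 of 46 had an unadjusted p below 0.05 (16.2% of all rows). The median difference was -0.12, against 0.03 over all rows, and single genes ran from -0.78 for Psmd12 to 0.58 for Psmb10. Psmd5 had the lowest p (0.51 ± 0.12, adjusted p = 0.08789) and was higher in superovulated material at 8 of 8 stages, as were Psme3 (0.42 ± 0.12, adjusted p = 0.1185) and Psmg3 (0.25 ± 0.09, adjusted p = 0.1882). At 7 of 8 stages Psmb4, Psmb10 and Psmd8 were higher in superovulated material, and Psma4, Psmb6, Psmc1, Psmc3, Psmd1, Psmd7 and Psmd12 were lower. No share of all rows with signs this regular is given, so these lists are not a test. Over all stages 33 of 46 genes had a fitted difference below 0, none past the threshold. The genes share the same arrays and no share of all rows below 0 is given, so this count is not a test. Psmd5 was called when only rows above the median level were tested (adjusted p = 0.04181). Without either blastocyst array the lid subunit Psmd12 (-1.03), Psma4 (-0.79) and Psmc1 (-0.78) were called lower in superovulated material. In a fit that let the difference change between the stages up to early 2-cell and those after, no proteasome gene was called, nor any row (0.0%), and 2 of 46 had an unadjusted p below 0.05 (6.22% of all rows).

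Stage by stage, the largest shifts were in morulae and blastocysts and ran in opposite directions. In morulae 9 genes were higher and 37 lower in superovulated than in natural-cycle material (median -0.57), and in blastocysts 40 were higher and 6 lower (median 0.56). Among all rows above the median level the medians were -0.15 and 0.09, and 60.1% were lower in superovulated morulae and 41.8% in superovulated blastocysts. At the earlier stages the median lay between -0.34 at 8-cell and 0.00 at late 2-cell. The lid subunit Psmd12, for instance, measured 13.40 in superovulated and 14.77 in natural-cycle morulae and 13.76 and 12.83 in the blastocysts. Psmc5 measured 14.11 and 15.50 in morulae and 14.48 and 13.71 in blastocysts. From morula to blastocyst 30 of 46 genes thus went up in superovulated and down in natural-cycle material and 2 the reverse, where 19.9% of rows above the median level went up in the one and down in the other. The sign of both shifts was kept under other scalings, where medians were taken over all 50 name matches. These include Psmb5-ps, Psmb6-ps, Psmc3ip and Psme3ip1, which are not subunits. The difference between these median levels was -0.95 in morulae and 0.46 in blastocysts as deposited. It was -0.70 and 0.38 after cyclic loess, and -0.56 and 0.44 with arrays centred on rows above the silent level. Each of these 4 groups is 1 array, so the differences have no replicate check.

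**Figure D5:**
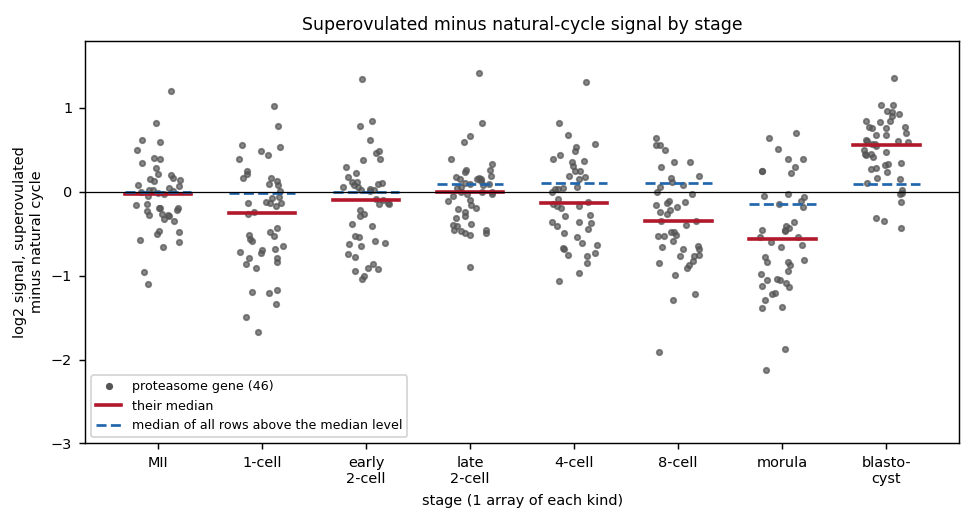
Superovulated minus natural-cycle log2 signal at each stage for 46 proteasome genes (points), with their median (red) and the median of all rows above the median level (blue, dashed). The red median is -0.57 in morulae and 0.56 in blastocysts, with all other stages between -0.34 and 0.00.

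Other genes moved between the same arrays. The mean of 7 trophectoderm markers was 6.95 in superovulated and 8.64 in natural-cycle morulae, and 10.40 and 11.44 in the blastocysts. In morulae Krt18 (8.18 and 13.27) and Krt8 (8.19 and 12.06) differed most. Cdx2 (6.82 and 8.13), Eomes (6.21 and 7.35), Tfap2c (9.14 and 9.6) and Krt7 (5.50 and 5.77) differed less. Elf5 (4.57 and 4.27) went the other way. The mean of 5 inner cell mass markers was 8.14 and 8.69 in morulae and 9.73 and 9.70 in blastocysts. The superovulated morula array also had the highest median over all rows, 4.69. The part of these markers and of that array in the proteasome values was not tested.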

How the data were processed

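Mouse oocytes and preimplantation embryos at 8 stages, superovulated or from natural cycles, were measured on 16 Affymetrix MTA 1.0 arrays. The authors deposited log2 signals; the submitters' processing notes name Affymetrix Expression Console as the software. The paper's methods name SST-RMA for its blastomere and blastocyst arrays and not expressly for these, and no genome build is given in the sources used here. Signal is thus scaled between arrays, and amounts per embryo are lost. Of 72688 rows, 186 control rows, 2176 rows with several symbols and 39688 with none were left out, and 30638 rows were fitted as deposited with limma 3.58.1 (R 4.3.3), using terms for stage and for stimulation and a mean-variance trend (7 residual and 4.52 prior degrees of freedom). The number of arrays limits the precision (median SE 0.227 for a step and 0.113 for stimulation). P-values were adjusted by Benjamini-Hochberg and called below 0.05 in 11 comparisons, with no fold threshold. The highest-mean row stood for a gene. The scripts were tested on simulated data. All members may be named; called members were named in order of size, up to 10 per direction. Members and lists were chosen with earlier results of these data known. Alternatives were cyclic loess, centring on rows above the silent level, all rows, rows above the median level, no stimulation term, plain analysis of variance, array weights, the lowest-mean row and leaving out each of 16 arrays. Nothing in the labels names separate cultures for the backgrounds' arrays beyond the pooled collections, so p-values measure the spread between these arrays.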

Additional observations from a re-analysis of the deposited data

Results flagged for a closer look

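Proteasome signal was also present in rows that were left out because they carry several symbols. The row shared by Psmb5, the chymotrypsin-like subunit, and Mir686 was above the silent level on 16 arrays. It measured 9.41, 8.72, 9.85, 14.39, 14.69, 15.23, 15.56 and 15.94 from MII to blastocyst in superovulated material, against 8.73, 7.99, 9.78, 14.43, 14.88, 15.94, 16.26 and 15.48 in natural-cycle material, so that all 10 arrays from late 2-cell on lay above all 6 earlier ones. A row shared by Psme2b, Psme2 and Psme2b-ps was above the silent level on 16 arrays and a row shared by Psme2 and Psme2b on 15. A row shared by Gm6787 and Psmb7-ps2 was above it on 10 and was highest in natural-cycle 1-cell embryos (6.87). In none of these rows can the genes be told apart.

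The median change of the 46 proteasome genes had opposite signs on the backgrounds at 2 steps. From morula to blastocyst it was 0.57 in superovulated and -0.41 in natural-cycle material. From MII to 1-cell it was -0.0084 in superovulated and 0.16 in natural-cycle material, the first of which is close to 0. Neither difference was tested, since each stage and background has 1 array.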

How the results depend on the processing

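Of 2853 refits of the 119 calls named for single genes, 2550 kept the call, 303 lost it and none reversed. Calls kept in every alternative numbered 12 of 21 from 1-cell to early 2-cell, 14 of 26 from early to late 2-cell, 9 of 19 from MII to early 2-cell, 30 of 38 from late 2-cell to blastocyst, and 0 at the single steps after late 2-cell. From late 2-cell to 4-cell, where 2 genes were called, all rows and plain analysis of variance gave 0, no stimulation term 1, and rows above the median level and array weights 4. From 4-cell to 8-cell (11 called) all rows and plain analysis of variance gave 4, no stimulation term 7 and array weights 20. From 8-cell to morula (0 called) cyclic loess gave 1, and centring and rows above the median level gave 3. From morula to blastocyst (2 called) cyclic loess gave 1 and all rows, no stimulation term and array weights 0. For superovulation (0 called) rows above the median level gave 1. Leaving out 1 array gave 0 to 0 calls from MII to 1-cell, 14 to 24 from 1-cell to early 2-cell, 16 to 28 from early to late 2-cell (16 without superovulated early 2-cell or natural-cycle late 2-cell), 0 to 3 from late 2-cell to 4-cell (under 2 without any of its 4 arrays), 0 to 15 from 4-cell to 8-cell (moved past 1.5 times in 10 of 16 cases), 0 to 2 from 8-cell to morula, 0 to 4 from morula to blastocyst (moved past 1.5 times in 14 of 16 cases), 10 to 22 from MII to early 2-cell (10 without natural-cycle early 2-cell), 31 to 38 from late 2-cell to blastocyst, 0 to 3 for superovulation (3 without either blastocyst) and 0 to 0 for its change between periods. After cyclic loess 3 proteasome genes were called up and 23 down from 1-cell to early 2-cell, against 5 and 16 as deposited, while all rows went to 2578 up and 4644 down, against 3480 and 3108. Centring moved the median of all rows by -0.14 at that step and by -0.20 at the next, and the proteasome median less that of all rows stayed at -0.64 and 0.75. The causes were not tested. The stage term pairs the backgrounds by stage; no replicate block could be fitted, since the labels give no replicate numbers. Genes near the silent level have only an upper bound, and their changes are not safe.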
